A study of Mus musculus with 9 samples.

Results

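The genes of the cytosolic ribosomal proteins, the protein parts of the ribosome that translates most cellular messages, were examined in ribosome-bound RNA of mouse cortex. They were taken by symbol alone: Rpl or Rps followed by a number with an optional a, x or l, together with Rplp0, Rplp1, Rplp2 and Rpsa. The pattern found 82 of the 47593 gene symbols in the tables, 50 of the large and 32 of the small ribosomal subunit, with 371 transcripts. The pattern used no measured value, but the class was chosen with earlier results of these data known. All samples came from the medial prefrontal cortex (mPFC) of adult C57BL/6 mice. The 9 libraries fell into 3 groups of 3: a control group in sleep, a control group in enforced wake (kept awake), and an enforced wake group whose mPFC overexpressed GFP-Fxr1, a fusion of green fluorescent protein (GFP) with Fxr1. Fxr1 belongs to the fragile X family of RNA-binding proteins, and both control groups overexpressed GFP alone. RNA was collected by RiboTag immunoprecipitation, which pulls down ribosomes through a tag on the large subunit protein Rpl22, and stranded total RNA libraries were made from it. How and in which cells the tag and Fxr1 were delivered is not in the labels. Whether replicates came from separate animals is not in them either. The scatter among these libraries, against which each p-value given here sets a group difference, may therefore be technical variation only.

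A ribosome carries 1 copy of most of its proteins, and cells make them in matched amounts. The messages of vertebrate ribosomal proteins begin with a cytosine followed by a run of pyrimidines, the 5′ terminal oligopyrimidine (TOP) motif. Through this motif their translation is tied to the kinase mTOR and to the RNA-binding protein Larp1, so that they enter or leave ribosomes together when growth signals change. In neurons these messages are also found in dendrites and axons, where ribosomal proteins can be made locally.

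The first 20 bases of the most abundant transcript of 10 genes are shown, because the TOP motif lies there. The first 6 are genes that were higher in enforced wake and the last 4 are genes that did not pass the test. They were picked after their values were seen. The longest run of C and T is in capitals, read from the GRCm38 genome at the transcript starts of the GENCODE M21 annotation.
Rplp1: gaTCTTTTCCTCagctgccg
Rps15: gtaCTTCCTTTTCCgagtaa
Rpl18: gCTCTTTCCCCgcccactcc
Rpl8: ctaTTTCCTCTTTCggcctt
Rpl36: CTTCCTgtcccggccgccat
Rps29: gTTgtcgcacggcgtacgcg
Rps24: CTCTTTTCCTCCTCTCCagc
Rps27: gCTCCTTTCCggcggtgacg
Rpl4: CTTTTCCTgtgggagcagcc
Rpl22: gCCTCCTCTgccgccatggc

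Runs of at least 7 pyrimidines stood in both sets: in Rplp1, Rps15, Rpl18 and Rpl8, which rose, and in Rps24, Rps27, Rpl4 and Rpl22, which did not pass. Among all 79 measured ribosomal protein genes, 23 had such a run in their first 20 bases (29.1%), against 9.81% of 12423 other protein-coding genes tested. The run could begin anywhere in these bases, so this is not a count of TOP motifs, which begin at the first base. In Rpl11 and Rps18 the run began at base 14 and 11. Rpl36 and Rpl37a, with a run of 6 from base 1, were not counted. These are annotated starts, and the starts used in these samples were not measured. The median log2 difference between enforced wake and sleep was 0.21 in the 23 genes with a run and 0.23 in the others. These medians therefore do not compare messages with and without a TOP motif.

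For 4 genes the promoter is shown from 60 bases before to 20 bases after the start that RefSeq annotates on GRCm38.p6, to set a pair that rose in enforced wake, Rpl18 and Rpl41, beside a pair that did not pass, Rpl38 and Rps27. They were picked after their values were seen. Capitals mark the 2 motifs searched on both strands, CTTTCC with its reverse complement GGAAAG, and GGAAGT with its reverse complement ACTTCC, the core letters bound by factors of the ETS family. The positions are chr7:45718011-45718090 on the plus strand for Rpl18, chr10:128549149-128549228 on the minus strand for Rpl41, chr11:114668520-114668599 on the plus strand for Rpl38 and chr3:90213629-90213708 on the minus strand for Rps27. Each sequence reads 5′ to 3′ on the strand of its gene.
Rpl18: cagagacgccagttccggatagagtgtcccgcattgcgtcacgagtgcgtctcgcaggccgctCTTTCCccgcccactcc
Rpl41: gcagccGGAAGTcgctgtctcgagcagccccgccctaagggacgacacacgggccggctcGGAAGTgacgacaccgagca
Rpl38: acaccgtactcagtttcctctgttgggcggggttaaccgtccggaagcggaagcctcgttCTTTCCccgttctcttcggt
Rps27: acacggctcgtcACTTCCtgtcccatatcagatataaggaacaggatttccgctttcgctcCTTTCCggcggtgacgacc

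Of 60 ribosomal protein genes with a promoter window in the RefSeq table (300 bases, from 250 before to 50 after the start), 29 held CTTTCC or GGAAAG (48.3%), against 26.3% of all 27025 windows. GGAAGT or ACTTCC stood in 30 of the 60, against 24.1% of all windows. These are matches of letters and not measured binding. The window reaches past the start, and in Rpl18 and Rps27 the marked CTTTCC lies within the pyrimidine run shown above. In the Rpl38 window the marked CTTTCC lies at the RefSeq start, also within a run of C and T. How far the matches overlap such runs in other genes was not counted.

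Levels are given as FPKM, a count of fragments divided by transcript length and by the mapped fragments of the library, summed over the transcripts of a gene. Of the 82 genes, 79 had a mean of at least 0.5 FPKM and were tested, 47 of the large and 32 of the small subunit. The other 3 were paralogs at or near 0 in every library: Rpl10l at 0 in all 9, Rpl39l at up to 0.13 FPKM and Rpl3l at up to 0.166 FPKM. Their parent genes were abundant, with means in sleep of 85.9 FPKM for Rpl10, 122.9 for Rpl39 and 263.1 for Rpl3. Rpl6l and Rps4l match the pattern but are annotated as processed pseudogenes, with 10.9 and 3.41 FPKM in sleep. A further 270 symbols of ribosomal protein pseudogenes (-ps) lay outside the pattern and summed to 7.14% to 8.18% of the members' FPKM per library. Reads can be divided between a gene and such near-identical copies, so the levels of single genes are uncertain by an amount the tables do not give.

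The highest levels belonged to 3 large subunit genes. Rpl9 averaged 356.3 ± 21.7 FPKM in the sleep libraries, 361.5 ± 20.5 in the enforced wake controls and 341.5 ± 46.8 with Fxr1 (mean ± SD, n = 3 each). Rpl38 had 344.7 ± 19.7, 350.4 ± 20.9 and 313.5 ± 21.9 FPKM in the same order, and Rpl4 297.5 ± 4.34, 311.9 ± 13.5 and 272.5 ± 27.4. The means of Rpl9 and Rpl38 differed by less than their SDs in sleep and in enforced wake. Rpl22, whose protein carries the RiboTag epitope, stood at 21.9, 26.5 and 23.4 FPKM in the sleep libraries, at 22.5, 24.9 and 23.6 in the enforced wake controls and at 21.8, 23.8 and 22.1 with Fxr1. Those ranges overlapped in all 3 groups, and Rpl22 passed in none of the 3 comparisons (limma adjusted p = 0.929, 0.567 and 0.556).

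Some facts of the whole series bear on these values. Depth estimated from the smallest steps of the FPKM values was 2.99e7 to 3.73e7 fragments per library. Fxr1 itself averaged 32.5 ± 2.03 FPKM in the sleep group, 33.3 ± 1.97 in the enforced wake controls and 76.9 ± 12.5 with overexpression, all 3 of those libraries lying above the 6 others. Fxr1 replicate 1 stood apart: its ribosomal protein genes lay at a median of -0.44 from their mean over the 9 libraries on the log2(FPKM + 1) scale, with an SD of 0.65 across genes, while the other 8 libraries had medians between -0.16 and 0.22 and SDs between 0.09 and 0.32. The summed FPKM of 7 neuronal markers was 3795 to 3967 in the sleep libraries, 3420 to 3559 in the enforced wake controls and 3688 to 3798 in the Fxr1 libraries, so this sum was lowest in the enforced wake controls. Most of it was Snap25, at 2198 to 2741 FPKM over the libraries. Single neuronal markers went both ways: 4 of the 7 had a positive difference between enforced wake and sleep, with a median of 0.08. The sum of the 5 astrocyte markers ranged from 108.8 to 127.9 FPKM in the sleep libraries, from 117.9 to 142.4 in the enforced wake controls and from 73.8 to 88.1 in the Fxr1 libraries. The 5 oligodendrocyte markers summed to 77.1 to 125.4, 120.4 to 139.7 and 105.3 to 119.8 FPKM, and the 5 microglial markers to 9.43 to 14.5, 13.3 to 16.4 and 8.38 to 12.4 FPKM. Over all libraries, 3 endothelial markers summed to 3.35 to 6.15 FPKM and 3 blood genes to 38.2 to 105.3. No marker was at 0 in any library, so messages of other cell types were detected in each.

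As a class, ribosomal protein messages took a larger share of ribosome-bound RNA in enforced wake. They held 2.67%, 2.80% and 2.83% of total FPKM in the sleep libraries, 3.0%, 3.08% and 2.95% in enforced wake and 2.45%, 2.87% and 2.54% in enforced wake with Fxr1. Every enforced wake control library lay above all others, and the sleep and Fxr1 libraries overlapped. The group means were 2.77% ± 0.0860, 3.01% ± 0.0655 and 2.62% ± 0.222 (SD, n = 3). With 3 against 3 libraries an exact permutation test cannot go below p = 0.1, so these shares carry no test. In bulk RNA, fewer cells of a type and less RNA per cell cannot be told apart. With protein-coding genes alone in the total, the shares were 2.95% to 3.10%, 3.44% to 3.61% and 2.62% to 3.16%.

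Large subunit genes outweighed small subunit genes in summed FPKM by a log2 ratio of 0.73, 0.69 and 0.69 in sleep, 0.67, 0.65 and 0.62 in enforced wake and 0.61, 0.70 and 0.72 with Fxr1. These sums run over 50 large and 32 small subunit genes, so the ratio depends on the number of genes as well as on their levels. Genes outside the symbol pattern were not in the sums. Among them were Rps3a1 and Fau of the small subunit, with means of 230.8 and 95.1 FPKM in sleep. Rpl36al, Rpl22l1 and Rpl7l1, with 83.3, 126.6 and 18.3 FPKM in sleep, were left out too. The enforced wake control libraries lay below the sleep libraries without overlap, while the Fxr1 libraries spanned both groups, with replicate 1 the lowest. The mean ratio moved from 0.70 ± 0.02 to 0.65 ± 0.03 (SD, n = 3). When the median gene of each subunit was used in place of the sum, the log2 ratio was 0.02, -0.04 and -0.01 in sleep, -0.12, -0.17 and -0.11 in enforced wake and 0.58, -0.10 and -0.27 with Fxr1. The enforced wake controls again lay below the sleep libraries. The Fxr1 mean of 0.07 ± 0.45 rested on replicate 1 and was -0.18 without it.

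**Figure D1:**
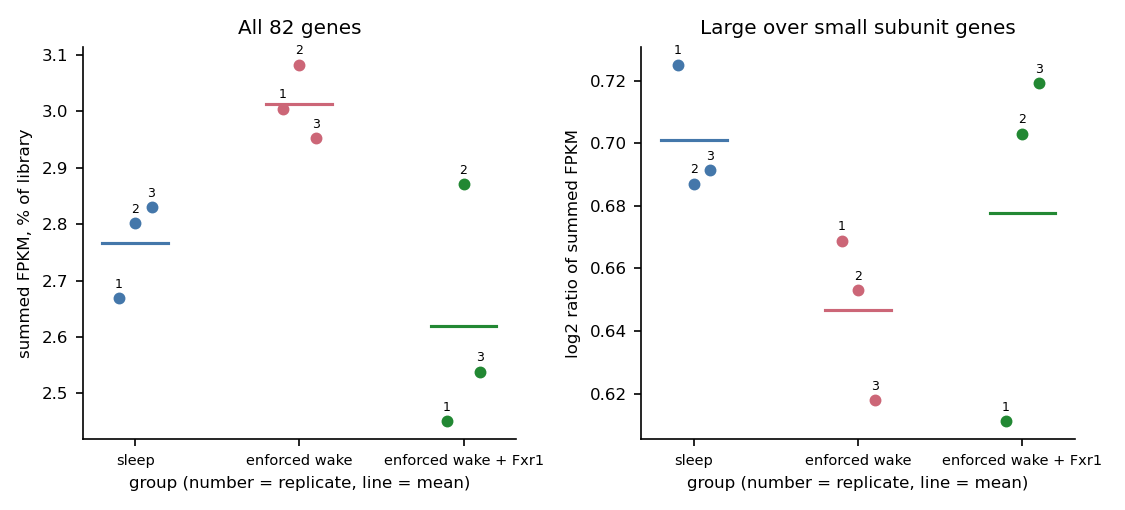
Left, summed FPKM of the 82 ribosomal protein genes as a percent of each library's total; right, log2 ratio of the summed FPKM of large over small subunit genes. Points are single libraries with their replicate number and lines are group means; the 3 enforced wake control libraries have the highest shares, 2.95% to 3.08%.

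Enforced wake was first compared with sleep in the control animals, which asked which messages differed on ribosomes between the 2 states. Many ribosomal protein genes of both subunits rose and none fell. Of the 79, 40 were higher in enforced wake (50.6%) and 0 lower at a limma adjusted p under 0.05, where 15.7% of all 14673 genes tested were higher and 12.7% lower. At an unadjusted p under 0.05 the counts were 45 and 0, where 22.6% of all genes were higher and 20% lower. The median log2 difference of the 79 was 0.22, against 0.00 over all genes, and 65 of the 79 were positive. For 49 genes all 3 enforced wake libraries lay above all 3 sleep libraries (25.8% of all genes), and for 1, Rpl23, all lay below (23.8% of all genes). Both subunits took part: 23 of 47 large subunit genes rose with a median of 0.20 over all 47, and 17 of 32 small subunit genes with a median of 0.26. The genes that passed had differences from 0.20 to 1.34, so the range within the class was wide.

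The stalk of the large subunit, a flexible arm formed by Rplp0 with the acidic proteins Rplp1 and Rplp2 that recruits translation factors, was among the groups that rose. Rplp1 (ENSMUSG00000007892, chr9:61913284-61914542, minus strand) had 93.3, 83.6 and 100.1 FPKM in sleep and 153.4, 165.8 and 180.0 in enforced wake. The 2 groups were far apart, and Rplp1 rose by 0.84 in log2(FPKM + 1) units (SE 0.09, adjusted p = 0.0028 with limma, n = 3 each). Rplp0 (ENSMUSG00000067274) had 53.1, 44.1 and 52.8 FPKM in sleep and 89.2, 76.1 and 90.8 in enforced wake. It rose by 0.76 (SE 0.10, limma adjusted p = 0.00522), without overlap, but its most abundant transcript alone did not pass (0.31, limma adjusted p = 0.198). Rplp2 (ENSMUSG00000025508) went from 37.8, 39.2 and 41.7 FPKM to 56.1, 64.7 and 56.3, a rise of 0.56 (SE 0.08, limma adjusted p = 0.00534). All 3 stalk genes thus rose.

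Rpl36, a large subunit protein (ENSMUSG00000057863, chr17:56613416-56614243, plus strand), had 22.9, 12.6 and 22.7 FPKM in sleep and 47.9, 50.7 and 48.8 in enforced wake. Its rise of 1.34 (SE 0.21, limma adjusted p = 0.00823) had the largest size of the class, and sleep replicate 2 lay well below its partners. Rpl41, which encodes the shortest of the proteins, a basic peptide, went from 83.6, 85.4 and 95.6 FPKM to 107.1, 118.3 and 121.1. It rose by 0.39 (SE 0.08, limma adjusted p = 0.0149), a call lost without enforced wake replicate 2 or 3 (adjusted p = 0.057 and 0.054). Rpl10, which completes the peptidyl transferase region late in assembly, had 85.2, 80.8 and 91.7 FPKM in sleep and 108.6, 107.0 and 107.5 in enforced wake, a rise of 0.32 (SE 0.06, limma adjusted p = 0.0125).

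Among small subunit genes, Rps15, a protein of the head of the subunit (ENSMUSG00000063457, chr10:80292453-80294114, plus strand), had 163.7, 112.2 and 162.0 FPKM in sleep and 244.3, 256.8 and 259.2 in enforced wake. It rose by 0.81 (SE 0.15, limma adjusted p = 0.0114), with sleep replicate 2 again the lowest library. Rps26, which lines the exit path of the message, went from 52.4, 43.3 and 51.2 FPKM to 77.7, 79.9 and 84.0, a rise of 0.71 (SE 0.08, limma adjusted p = 0.00369). Rpsa, also known as the laminin receptor, went from 67.5, 60.4 and 72.5 FPKM to 92.6, 98.2 and 97.3, a rise of 0.52 (SE 0.08, limma adjusted p = 0.00666). None of these 3 had overlapping groups. The pseudogene Rps4l rose by 1.03 (SE 0.17, limma adjusted p = 0.00864) from a low level, with a range of 2.32 to 4.22 FPKM across the sleep libraries and of 7.47 to 8.31 FPKM across the enforced wake controls, while its parent gene Rps4x, on the X chromosome, had a difference of -0.08 (SE 0.08, limma adjusted p = 0.522).

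Other abundant members did not pass. Rps6, the classical substrate of S6 kinase in the mTOR pathway, had 155.7, 155.2 and 152.6 FPKM in sleep and 165.8, 162.9 and 158.0 in enforced wake. The groups did not overlap, yet the difference was 0.07 (SE 0.05, limma adjusted p = 0.307). Rps27a, made as a fusion with ubiquitin, had a difference of -0.10 (SE 0.11, limma adjusted p = 0.544), with 120.7, 161.7 and 136.0 FPKM in sleep and 127.7, 138.4 and 123.0 in enforced wake. Rpl9, Rpl38 and Rpl4, the genes of highest level, had differences of 0.02, 0.02 and 0.07. Rps27 and its paralog Rps27l had 0.03 and -0.06, and Rpl3 had 0.09. Rpl39, a small protein of the nascent peptide tunnel, had the lowest value of the class at -0.26 (SE 0.14, limma adjusted p = 0.187).

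**Figure D2:**
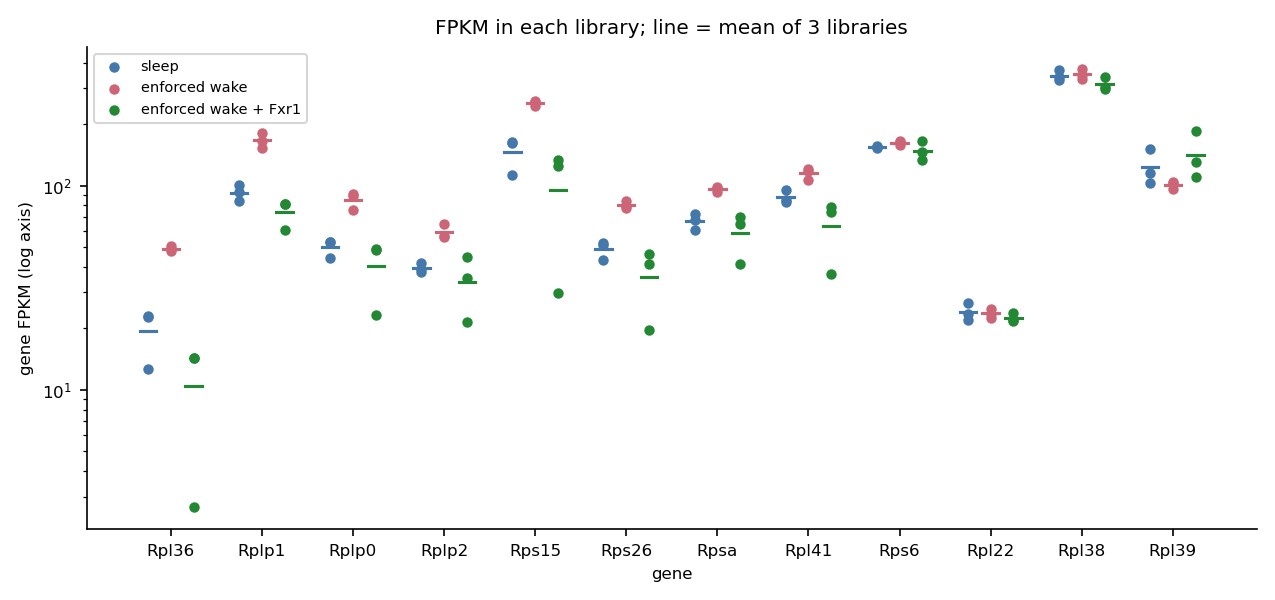
FPKM of 12 ribosomal protein genes in each library, on a log axis; each point is 1 library and each line the mean of 3. In Rpl36, the stalk genes, Rps15, Rps26, Rpsa and Rpl41 the enforced wake control libraries lie above both other groups, while Rps6, Rpl22 and Rpl38 show overlapping groups in at least one comparison.

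The size of the differences varied with the base composition of the transcripts. Across the 79 genes, the difference between enforced wake and sleep had a Spearman correlation of 0.69 with the GC content of the most abundant transcript. It was 0.57 across 12455 other protein-coding genes. These are descriptions across genes that share their libraries, with no test. Of 27 ribosomal protein genes below 50% GC, 6 rose, with a median over the 27 of 0.02. Of 28 between 50% and 54%, 12 rose, with a median of 0.21, and of 24 at 54% or above 22 rose, with a median of 0.53. In the same ranges the other protein-coding genes had medians of -0.12, 0.05 and 0.25, with 5.66%, 16.2% and 34.6% higher, so the median of the ribosomal protein genes lay above that of the other genes in each range. With a smooth trend in GC content and length of the most abundant transcript subtracted from every library, 39 genes were higher and 0 lower, where 10.3% of all genes were higher, and 35 of them were among the original 40. With the trend taken from the longest transcript of each gene instead, 38 were higher and 2, Rpl38 and Rps27, lower, where 10.4% of all genes were higher and 13.2% lower. The call of Rpl41 was lost under both corrections (0.15, limma adjusted p = 0.116 under the first), and that of Rps15 under the second (0.28, limma adjusted p = 0.0699), but not under the first (0.47, limma adjusted p = 0.0242). The correlation of a library's ribosomal protein values with GC content also differed within groups: 0.23, -0.54 and 0.37 in sleep, 0.60, 0.72 and 0.68 in enforced wake, and -0.66, -0.45 and -0.19 with Fxr1. The part of GC content in the differences was not tested beyond these values.

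**Figure D3:**
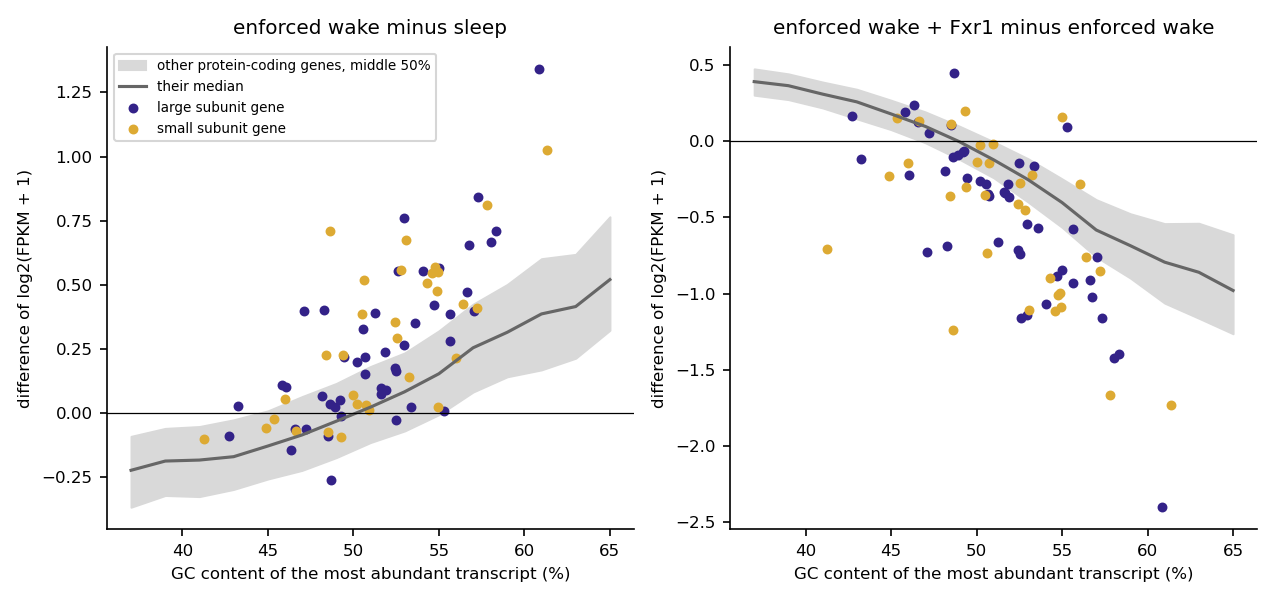
Difference of log2(FPKM + 1) against the GC content of the most abundant transcript for the 79 measured ribosomal protein genes, with the median and the middle 50% of other protein-coding genes in grey. In the left panel most points at 54% GC or above lie above the grey line, with a median of 0.53 against 0.25; in the right panel most lie below it, with medians of -0.96 and -0.56.

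The count also depended on which libraries set the spread. In a fit of all 9 libraries, which lets the wider spread of the Fxr1 group enter, the differences were the same but only 3 genes passed: Rplp1, Rps29 and Rps12 (limma adjusted p = 0.00816, 0.0223 and 0.0476), where 4.58% of all genes were higher and 4.99% lower. Mbp, 1 of 5 oligodendrocyte markers, and Tmem119, 1 of 5 microglial markers, also rose in enforced wake. Tmem119 was at a low level, 0.74 to 1.75 FPKM in the sleep and enforced wake control libraries. Of the 5 oligodendrocyte markers 4 had a positive difference. Of the 5 microglial markers 3 did, while Cx3cr1 and P2ry12 had negative differences. Marker calls come from the fit of the 6 libraries compared, where 15.7% of all genes were higher and 12.7% lower. Of 7 neuronal markers 0 rose and 2 fell, Snap25 by 0.22 and Syt1 by 0.25 (limma adjusted p = 0.0449 and 0.0208), with a median of 0.08 over the 7. The part of these markers in the ribosomal protein result was not tested.

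Lists of genes near the class in function were read beside it in the same fit. They were chosen with earlier results of these data known. Of 18 translation genes whose messages also carry TOP motifs, 3 rose and 3 fell, with a median of 0.00: Eef2, the factor that moves the ribosome along the message, rose by 0.64 (SE 0.13), Eef1a2, the neuronal form of the factor that delivers transfer RNAs, by 0.55 (SE 0.13), and Eif3k by 0.28, while Eif4b, Eif3e and Npm1 fell by 0.24, 0.30 and 0.29 (limma adjusted p from 0.0134 to 0.0485 for the 6). Of 16 regulators of mTOR and of TOP messages, Mtor, Eif4ebp2 and Ddit4 rose by 0.26, 0.40 and 0.33, and Eif4ebp1 and Rps6kb1 fell by 0.38 and 0.33, with a median of 0.16 over the list. Of 25 ribosome assembly genes 9 rose and 3 fell, with a median of 0.10. Ubtf, a transcription factor of ribosomal RNA genes, rose by 0.50 (SE 0.08) and Rrp9 by 0.60 (SE 0.09), while nucleolin (Ncl) fell by 0.30 (SE 0.06). Of 77 proteins of the mitochondrial ribosome, a separate machine inside mitochondria, 12 rose and 9 fell, with a median of 0.01. Over all genes in this fit, 15.7% were higher and 12.7% lower. The counts of the TOP list, of the mTOR and TOP regulators and of the mitochondrial list lay near those shares.

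A list of ribosomal protein genes whose symbols fall outside the pattern was read beside the members, and 5 of its 6 genes reported here were matched by symbol. Fau, which encodes a ubiquitin-like fusion with a small subunit protein, had 97.0, 89.3 and 99.1 FPKM in sleep and 142.0, 145.8 and 141.2 in enforced wake. It rose by 0.58 (SE 0.06, limma adjusted p = 0.00235). Rpl7l1 and Rpl36al rose by 0.23 and 0.15 (limma adjusted p = 0.0347 and 0.0484), while Rps3a1 and Rpl22l1 did not pass, with differences of -0.01 and -0.13. The median of the 5 was 0.15. In this fit 15.7% of all genes were higher and 12.7% lower.

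**Figure D4:**
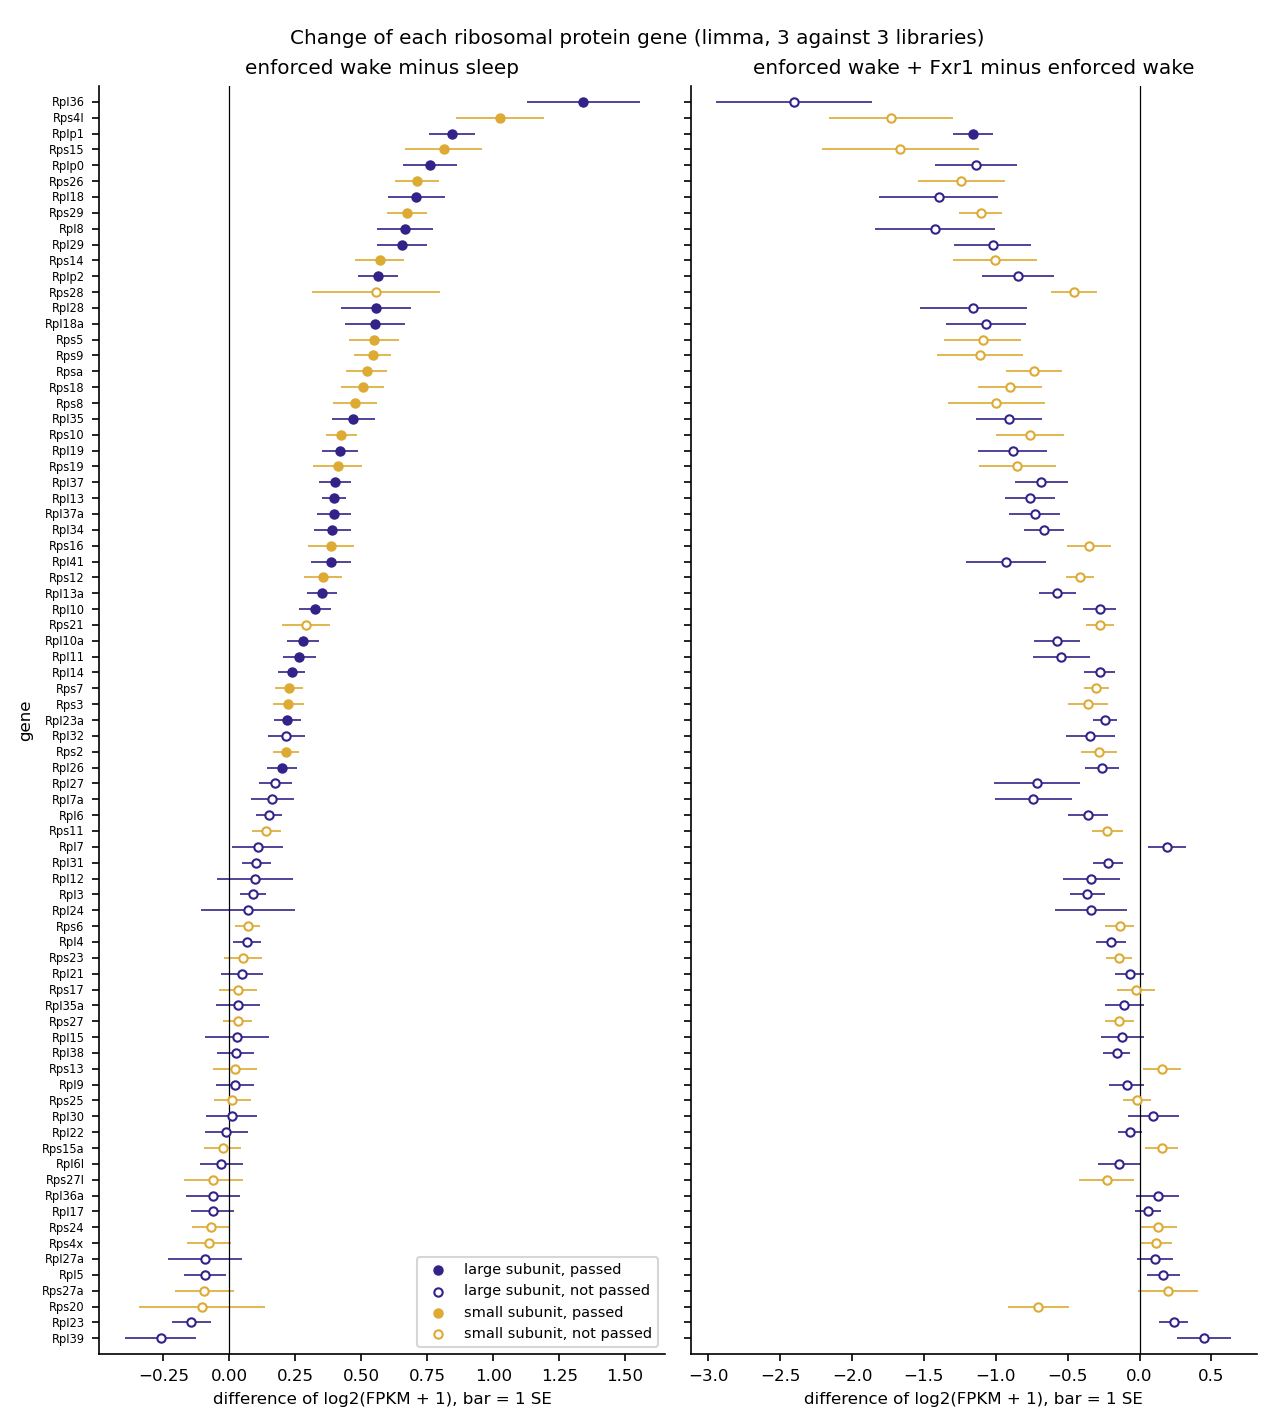
Difference of log2(FPKM + 1) of each of the 79 measured genes, ordered by the difference of enforced wake from sleep, with bars of 1 SE; filled points passed a limma adjusted p of 0.05. On the left 40 points are filled, all above 0; on the right 1 is filled, Rplp1 at -1.16.

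The comparison of Fxr1 overexpression with its control, both in enforced wake, asked what changed on ribosomes when Fxr1 was raised. It uses the same enforced wake control libraries as the comparison above, so the 2 sets of differences are not independent and their likeness is no result. Of the 79 genes 1 fell, Rplp1, and 0 rose with limma over all genes, where 0.33% of 14563 genes were lower and 0.0824% higher. At an unadjusted p under 0.05, 43 were lower and 0 higher, where 25.4% of all genes were lower and 12.9% higher. The median difference was -0.35 (large subunit -0.34, small subunit -0.36), against -0.06 over all genes, and 66 of the 79 were negative. For 50 genes all 3 Fxr1 libraries lay below all 3 controls (32.3% of all genes), and for 2, Rpl23 and Rpl39, above (20.3%).

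Rplp1 had 153.4, 165.8 and 180.0 FPKM in enforced wake control and 60.8, 80.9 and 81.6 with Fxr1. The groups were far apart, and Rplp1 fell by 1.16 (SE 0.14, limma adjusted p = 0.0409, n = 3 each). That call was lost without enforced wake replicate 1, 2 or 3 (adjusted p = 0.180, 0.216 and 0.237) and without Fxr1 replicate 2 or 3 (0.0882 and 0.0501), while the difference stayed between -1.23 and -1.02. With the GC and length trend of the most abundant transcript removed it was -0.43 and did not pass (adjusted p = 0.151). The 1 gene that passed with this trend removed was Rps29, which encodes a small zinc-binding protein of the small subunit, at -0.68 (limma adjusted p = 0.0456), against -1.11 (SE 0.15, limma adjusted p = 0.053) without the correction. Rps29 had 210.8, 234.3 and 227.7 FPKM in enforced wake control and 84.0, 124.8 and 105.9 with Fxr1.

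Other stalk, large and small subunit genes did not pass, and their Fxr1 libraries were spread widely. Rpl36 had 2.66, 14.3 and 14.2 FPKM with Fxr1 against 47.9, 50.7 and 48.8 in control, a difference of -2.40 (SE 0.54, limma adjusted p = 0.0878). Rps15 had 29.8, 124.3 and 132.9 FPKM against 244.3, 256.8 and 259.2, a difference of -1.66 (SE 0.55, limma adjusted p = 0.0958). Rpsa had 41.5, 70.0 and 64.5 FPKM against 92.6 to 98.2, a difference of -0.74 (SE 0.19, limma adjusted p = 0.0878). In each of these, replicate 1 was the lowest of the 3 and the 2 others were close to one another. Rplp0, Rplp2, Rps26 and Rpl41 also had their lowest value in replicate 1, with differences of -1.14, -0.85, -1.24 and -0.93.

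Without Fxr1 replicate 1, the library that stood apart, 36 genes fell and 1, Rpl23, rose (limma, 3 against 2 libraries), where 17.1% of all genes were lower and 5.69% higher. The median difference was then -0.26. Rpl36 fell by 1.71 (adjusted p = 0.000569), Rplp1 by 1.02 (0.00363), Rps15 by 0.97 (0.00267), Rps26 by 0.87 (0.00394), Rplp0 by 0.79 (0.007), Rpl41 by 0.59 (0.00859), Rplp2 by 0.56 (0.0289) and Rpsa by 0.51 (0.00813), all with limma. Rpl3, the core protein of the peptidyl transferase region, fell by 0.25 (adjusted p = 0.041), from 280.3 FPKM in the control group. In a fit of all 9 libraries with replicate 1 kept, 34 genes were lower and 0 higher, where 16.3% of all genes were lower and 6.71% higher. The count thus differed with the libraries that entered the estimate of spread.

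Other members had small or positive differences. Rps6 had 134.0, 164.6 and 145.2 FPKM with Fxr1 (difference -0.14, SE 0.10, limma adjusted p = 0.328), Rps27 -0.14, Rpl9 -0.09 and Rps4x 0.12. Rpl39 had 184.8, 130.7 and 109.7 FPKM with Fxr1 against 96.4 to 104.2 in control, a difference of 0.45 (SE 0.19, limma adjusted p = 0.131). Rps27a had 197.8, 150.8 and 110.3 FPKM with Fxr1 and a difference of 0.20 (SE 0.21), with replicate 1 the highest. Across the 79 genes the difference had a Spearman correlation of -0.68 with GC content, against -0.84 across 12338 other protein-coding genes. The medians of the ribosomal protein genes were -0.09 below 50% GC, -0.35 from 50% to 54% and -0.96 at 54% or above, against 0.17, -0.18 and -0.56 in other protein-coding genes, so their median was below that of the other genes in each range.

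**Figure D5:**
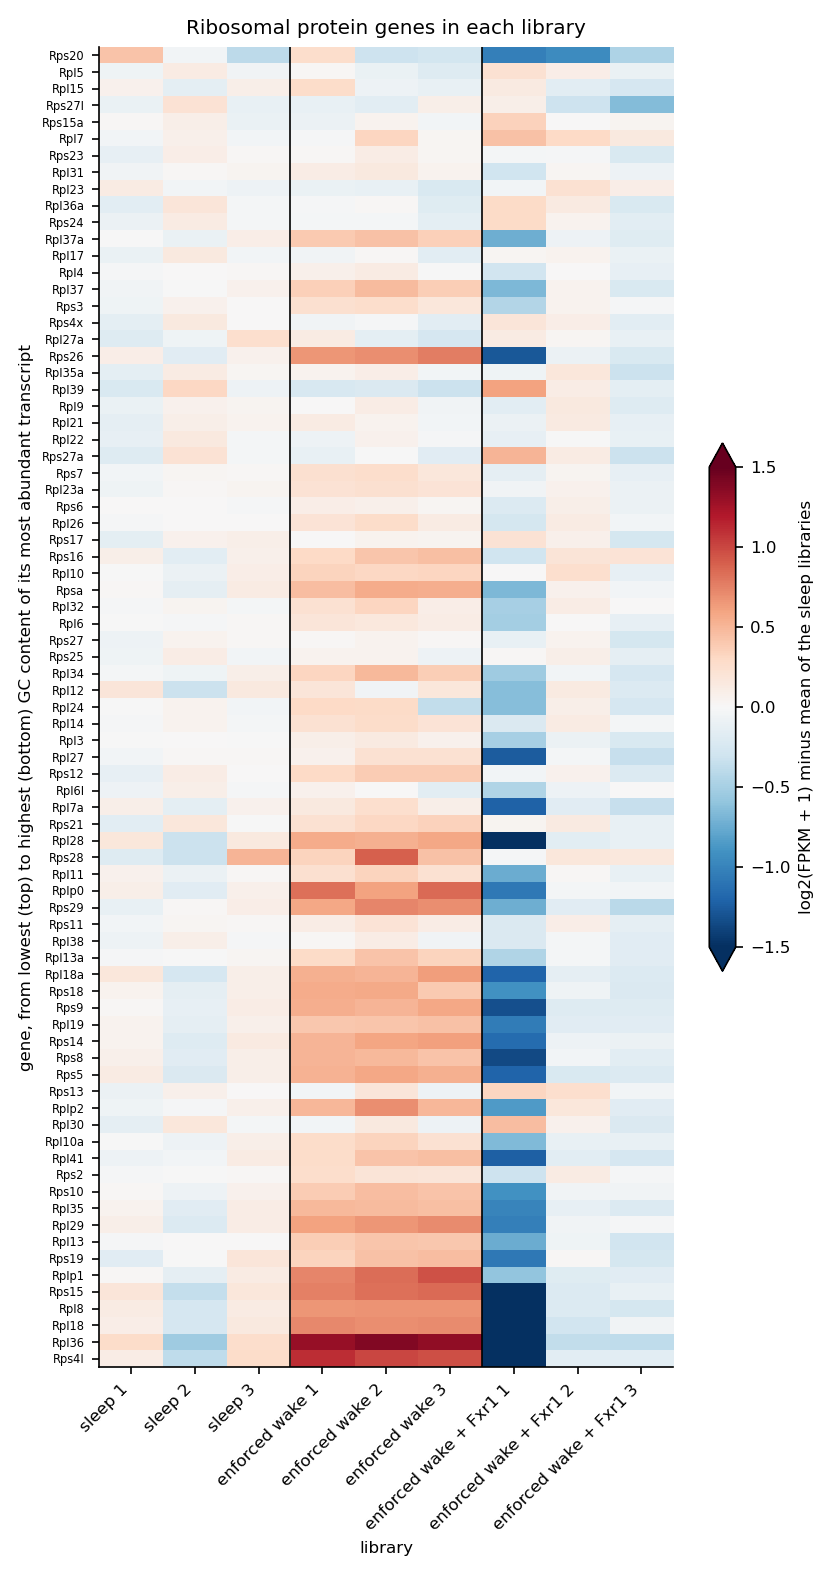
Each of the 79 measured genes (rows, ordered by GC content of the most abundant transcript) in each of the 9 libraries (columns), as log2(FPKM + 1) minus the mean of the sleep libraries, with colours limited at 1.5 on either side. The enforced wake control libraries are red in the lower rows of high GC content, and Fxr1 replicate 1 is blue there. Over all 79 genes, that library had a median deviation of -0.44 from the mean of all 9 libraries, a reference other than the sleep mean plotted.

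Over all genes, 0.0824% were higher and 0.33% lower in this comparison at a limma adjusted p under 0.05. The related lists had no gene that passed in it: 0 of 18 TOP translation genes, 0 of 16 mTOR and TOP regulators, 0 of 25 assembly genes, 0 of 77 mitochondrial ribosomal proteins and 0 of 5 ribosomal proteins outside the pattern, with medians of -0.07, -0.31, -0.24, -0.11 and -0.19. At an unadjusted p under 0.05 with limma, 4, 6, 11, 13 and 1 of them were lower and 2, 3, 1, 2 and 0 higher, in the same order, to be read against the 25.4% lower and 12.9% higher over all genes at this threshold. Fau had 45.3, 84.4 and 81.6 FPKM with Fxr1, a difference of -1.06 (SE 0.24, limma adjusted p = 0.0878). Gfap, 1 of 5 astrocyte markers, fell by 1.62 (SE 0.14, limma adjusted p = 0.0245), and the summed astrocyte markers were lower in all 3 Fxr1 libraries, as given above. Their part in the ribosomal protein values was not tested.

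Enforced wake with Fxr1 was also set against sleep. No ribosomal protein gene passed: 0 were higher and 0 lower with limma, where 3.2% of 14617 genes were higher and 4.58% lower, and at an unadjusted p under 0.05 the counts were 1 and 6, where 9.93% of all genes were higher and 19.2% lower. The shares of the class at that threshold were thus below those over all genes. The smallest limma adjusted p was 0.0808, for Rps20, with 16.7 FPKM in sleep and 9.0 with Fxr1. The 5 others lower at that level were Rps29, Rpl3, Rplp1, Rpl13 and Rpl7a, and the 1 higher was Rpl7, at 186.3 and 229.9 FPKM. The median difference was -0.17 (large subunit -0.22, small subunit -0.10), against -0.09 over all genes. For 11 genes the Fxr1 libraries lay below all sleep libraries (21.2% of all genes) and for 1, Rpl7, above (11.5%). Rplp1 had a difference of -0.32 (SE 0.13, limma adjusted p = 0.151), Rpl36 of -1.06 (SE 0.51, limma adjusted p = 0.202) and Rps15 of -0.85 (SE 0.49, limma adjusted p = 0.268). A p above the threshold does not show that the levels were equal. Without Fxr1 replicate 1, 0 genes passed in either direction with limma, where 5.72% and 4.12% of all genes were lower and higher, and the median difference was -0.07. At an unadjusted p under 0.05, 9 were then lower and 0 higher, where 18.1% of all genes were lower and 9.83% higher. Without Fxr1 replicate 2, 1 gene, Rps29, was lower (-0.57, limma adjusted p = 0.0413), where 3.29% of all genes were lower and 2.68% higher. With the GC and length trend of the most abundant transcript removed, 2 genes, Rpl7 and Rps2, were higher and 0 lower, where 6.99% and 6.07% of all genes were. In the related lists, without a correction, 1 of 18 TOP genes, Eif4b, fell by 0.30 and 1 of 16 regulators, Eif4ebp1, by 0.70. Of 25 assembly genes 1, Mdn1, rose by 0.47, and 4 of 77 mitochondrial ribosomal proteins fell (Mrpl11, Mrpl55, Mrps28 and Mrps5). Over all genes in this fit 3.2% were higher and 4.58% lower, and the counts of these lists lay near those shares.

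Single transcripts gave fewer calls than whole genes. Of 240 transcripts of these genes tested in enforced wake against sleep, 19 were higher and 2 lower (limma adjusted p under 0.05), where 2.05% of all 29116 transcripts were higher and 1.58% lower. The 19 became 15, 8 and 6 without sleep replicate 2, 1 or 3, 3 without enforced wake replicate 1 or 2, and 0 without enforced wake replicate 3. One of the lower ones was the Rps16 transcript ENSMUST00000155805, annotated as retaining an intron, with 11.6, 12.1 and 9.02 FPKM in sleep, 4.5, 4.0 and 3.55 in enforced wake controls and 17.5, 23.6 and 19.1 in enforced wake with Fxr1. The 3 groups did not overlap. It fell by 1.24 in enforced wake (SE 0.14, limma adjusted p = 0.0203) and rose by 2.06 with Fxr1 against enforced wake (SE 0.15, limma adjusted p = 0.00682), while the whole gene rose in enforced wake by 0.39 (SE 0.09, limma adjusted p = 0.021). The fall in enforced wake did not pass without sleep replicate 1 or 2 (adjusted p = 0.0582 and 0.0506) or without enforced wake replicate 1, 2 or 3 (0.0566, 0.0802 and 0.0726), while the rise with Fxr1 passed with any 1 library left out (adjusted p from 0.0122 to 0.0416). The other was a non-coding transcript of Rpl35, ENSMUST00000152441, whose mean was 3.84 FPKM across the sleep libraries and 0.623 FPKM across the enforced wake controls.

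In Fxr1 against enforced wake 1 of 238 transcripts was higher, that of Rps16, and 2 were lower, where 0.284% and 0.61% of all 28837 transcripts were. The lower ones were the only transcript of Rplp1 and the Rplp2 transcript ENSMUST00000084434, which had 36.02, 30.9 and 34.0 FPKM in control and 5.18, 8.6 and 9.88 with Fxr1. That transcript fell by 2.0 (SE 0.23, limma adjusted p = 0.0285), against 0.85 for the Rplp2 gene as a whole. Its call was lost without enforced wake replicate 1, 2 or 3 (adjusted p = 0.108, 0.103 and 0.115) and without Fxr1 replicate 2 (0.0633). Against sleep 0 of 238 passed in either direction with limma (0.479% of all transcripts were higher and 0.338% lower), and at an unadjusted p under 0.05 7 were higher and 17 lower, where 6.07% of all transcripts were higher and 9.15% lower. In the authors' deposited table of transcripts, 0 of 360 member transcripts in the sleep comparison and 0 of 361 in the Fxr1 comparison had a q-value under 0.05, the smallest being 0.351 and 0.287. Over all transcripts of that table, 0.0175% of 79923 and 0.0303% of 79087 had one, so a count of 0 is no result about these genes.

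Estimates of single transcripts also switched between replicates. The Rpl24 transcript ENSMUST00000023269 had 77.6, 112.8 and 75.1 FPKM in the sleep libraries, 114.5, 131.0 and 1.16 in the enforced wake controls and 4.31, 84.6 and 11.6 with Fxr1, while the gene as a whole had 150.3 to 160.3, 119.5 to 190.9 and 99.4 to 164.2 FPKM. The most abundant transcript held over 90% of the gene's FPKM in 39 genes and over 50% in 70. It was the same transcript in all 3 groups in 70 genes.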

How the data were processed

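Ribosome-bound RNA was sequenced in 9 libraries, 3 per group. The authors deposited 2 transcript tables with FPKM per library, and with a fold change, a p-value and a q-value per transcript, per the file headers. Reads were processed with HISAT2 2.1.0, SAMtools 1.9 and StringTie 1.3.4d on the GRCm38 build, per the submitters' processing notes; no source used here names the tool that gave the fold changes and q-values. Each table listed 115220 transcripts, and the enforced wake control columns were identical in both, so 9 libraries could be set side by side.

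FPKM are relative to each library's total, and no count model was applied to them. FPKM were summed over transcripts by symbol and log2(FPKM + 1) was tested by limma 3.58.1 (R 4.3.3; linear model and moderated variances that follow mean level), 2-sided, over genes with a mean of at least 0.5 FPKM in the libraries compared, with Benjamini-Hochberg adjustment over all of them and a threshold of 0.05. The added 1 makes differences of genes at low level look smaller than they are. Each comparison with the enforced wake control used its own 6 libraries; Fxr1 against sleep used all 9. The fit was run on simulated data with independent normal noise, set by the spread of the sleep libraries. Those data lack the wider spread of the Fxr1 group and shifts shared by genes of like GC content. They therefore do not test the counts given here. Medians over members carry no test.

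The members and the gene lists were chosen with earlier results of these data known. One gene of the list outside the symbol pattern is not reported here. Named genes were up to 6 passing members of largest size per direction, the 3 of highest level, Rpl22, the stalk genes, Rpsa, Rps6, Rps27a, Rpl41, and paralogs with their parents; other names were added after values were seen. Symbols, positions, transcript GC content and 5′ ends came from the files and GENCODE M21 on GRCm38, which held 99.1% of the 47729 gene identifiers. Figures and tables were made in Python 3.11.15. Alternatives were another pseudocount (0.1), no filter, 2 other scalings, variances that do not follow mean level, the most abundant transcript alone, the replicate number as a block, removal of a trend with GC content and length (splines with 5 degrees of freedom), and leaving out each library.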

Additional observations from a re-analysis of the deposited data

How the results depend on the processing

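The 40 ribosomal protein genes higher in enforced wake than in sleep became 27 to 39 with any 1 library left out, and 33 to 40 under the other planned settings, with 0 lower except with the GC and length trend removed, where 2 were lower (1 with the replicate block as well). In a fit of all 9 libraries, chosen after seeing the data, 3 were higher. The median difference of 0.22 was 0.18 with either GC and length trend removed, with or without the block, and 0.21 to 0.25 with 1 library left out. Against enforced wake, the count of 1 gene lower with Fxr1 was 0 with the pseudocount of 0.1, without the filter, with the replicate block and with the block and the trend removed, 2 (Rplp1 and Rplp2) with the most abundant transcript alone, 34 with all 9 libraries in the fit, and 0 to 36 with 1 library left out; the count higher was 0 to 1 with 1 library left out. Against sleep, 2 genes (Rpl7 and Rps2) were higher with Fxr1 with either trend removed, 0 to 1 were lower with 1 library left out, and the median was 0.0225 with the trend of the most abundant transcript removed, a correction chosen after seeing the data.

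For single transcripts, the replicate block gave 0 calls in each direction in enforced wake against sleep and in Fxr1 against enforced wake. With 1 library left out, 0 to 15 were higher and 1 to 3 lower in enforced wake against sleep, 1 to 3 higher and 0 to 22 lower in Fxr1 against enforced wake, and 0 to 1 higher and 0 to 1 lower in Fxr1 against sleep. The pseudocount of 0.1 gave 2 higher and 3 lower in Fxr1 against enforced wake. With protein-coding genes alone in the total, the mean shares were 3.03% in sleep, 3.51% in enforced wake and 2.87% with Fxr1. The log2 ratio of large over small subunit by medians was -0.0105 in sleep, -0.13 in enforced wake and 0.0700 with Fxr1, the last of which was -0.18 without Fxr1 replicate 1, an alternative chosen after seeing the data.

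The trend with GC content and length of the longest transcript was also removed. Among genes that passed before or after this correction, differences changed sign in 4. In enforced wake against sleep these were Rpl26 (-0.10, limma adjusted p = 0.262, and -0.10 with the block, 0.184), Rpl38 (-0.46, limma adjusted p = 0.0203, and -0.46 with the block, 0.0306) and Rps27 (-0.22, limma adjusted p = 0.0438). In Fxr1 against sleep it was Rps2 (0.27, limma adjusted p = 0.0419, and 0.29 with the trend of the most abundant transcript, 0.0418). Genes that passed neither before nor after it changed sign too. Examples are Rpl27 (0.17 and then -0.07) and Rpl5 (-0.09 and then 0.12) in enforced wake against sleep. Another is Rpl38 (-0.16 and then 0.80) in Fxr1 against enforced wake. The cause of these changes was not tested.

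Whether replicate numbers pair the samples is not known. Libraries of the same number had correlations of their deviations from the group means of -0.06, -0.01 and 0.06 in enforced wake and sleep. The values were 0.07, -0.07 and 0.17 in Fxr1 and enforced wake, and -0.24, -0.25 and 0.09 in Fxr1 and sleep. Libraries of unlike number had values from -0.38 to 0.43. Deviations from a mean of 3 libraries depend on one another, so these correlations cannot settle the pairing. With the number as a replicate block, 33 genes were higher and 0 lower in enforced wake against sleep, and 0 passed in both comparisons with Fxr1. The tables give FPKM and no read counts, so the precision of a single value is not known, and 3 libraries per group limit what a comparison can show.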
